A study of Mus musculus with 18 samples.

Results

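The genes described here are 32 genes of protein folding and endoplasmic reticulum (ER) stress, measured in 3 organs of newborn mice after exposure to diethylstilbestrol (DES) before birth. They were chosen by name, out of 12393 genes on the array. Of these, 25 act in the ER or in the signalling that starts there, and 7 are cytosolic chaperones or heat-shock genes. Each gene was represented by its probe set with the highest mean log2 signal. RNA of whole oviduct, uterus and vagina was hybridized to Affymetrix arrays, 1 per sample. The mothers, ICR mice, had received 67 µg of DES per kg of body weight each day from fetal day 10 to 18, and DES is a synthetic estrogen. The oil groups had received oil over the same days in place of DES, and RNA of both came from the day of birth. All groups had 3 arrays of the MOE430A type, except DES vagina with 2. The remaining DES vagina array, on an earlier chip design (MG_U74Av2), enters no fit. Per the labels, total RNA came from 3 litters, and nothing says that the arrays of a group are separate litters, so p-values measure only the spread between these samples.

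Proteins that enter the ER are folded there by chaperones and by disulfide isomerases, and proteins that fail to fold are sent back to the cytosol for degradation. When unfolded proteins accumulate, the sensors IRE1, PERK and ATF6 start the unfolded protein response. IRE1 splices the mRNA of the transcription factor XBP1, PERK favours translation of ATF4, and cleaved ATF6 enters the nucleus, which together raise transcription of ER chaperone genes. XBP1 is also needed to build the secretory apparatus of cells such as plasma cells and exocrine gland cells. The cytosolic heat-shock genes answer to another factor, HSF1.

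Of the 32 genes, 31 were tested, since their probe set was called Present on at least 2 of the 16 arrays with calls. The exception was Trib3, a pseudokinase induced by ATF4, called Absent on all 16, with signals of 22.6 to 193. Signals were scaled to a trimmed mean of 500 on every array, and changes are given on the scale log2(signal + 32), DES against oil. A change is called where limma's p-value, adjusted by Benjamini-Hochberg over 16702 probe sets, was under 0.05.

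Facts of the whole series touch these values. Arrays numbered 3 were scanned later than those numbered 1 and 2. Their array names in the file headers also give an age other than that of arrays 1 and 2. Before scaling, the trimmed mean was 26.5 to 79.3 on the earlier day and 108 to 143 on the later, and 52.7% to 66.3% of probe sets were Present. Age and scan day cannot be told apart. On the earlier day, oviduct arrays with a recorded hybridization run were in run 1, uterus arrays in run 2 and vagina arrays in run 3. On the later day DES uterus array 3 and DES vagina array 3 were in run 5 and the other arrays in run 4. Organ and run cannot be told apart on the earlier day. The run was not a term in the fits with or without the scan day. Oil oviduct array 1 has a signal but no calls, as its own file repeats DES oviduct array 1, and a note in the record of DES oviduct array 3 names another organ. These are the 2 oviduct arrays with conflicting records. Transcripts of 8 skeletal muscle marker genes summed to 3151 on oil oviduct array 1, 8008 on oil oviduct array 3 and 8275 on oil uterus array 3, against 311 to 1068 on the other oviduct and uterus arrays. The 8 summed to 2738 to 16473 on the vagina arrays.

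With DES, no tested gene of the 31 fell in any organ. Rises were called for 5 genes in oviduct, 5 in uterus and 3 in vagina. Of all probe sets tested, 4.39% rose and 3.39% fell in the oviduct. In the uterus 4.8% rose and 3.65% fell, against 1.44% and 0.707% in the vagina. The median change over the 31 genes was 0.28 for oviduct, 0.39 for uterus and 0.45 for vagina, beside -0.05, -0.06 and -0.03 over all probe sets tested. In whole organs, more cells of a type and more RNA per cell cannot be told apart. With the scan day as a term of the fit, the genes called higher numbered 10, 12 and 5, and none was called lower. Over all probe sets that fit called 7.84%, 8.17% and 3.05% higher, and 1251, 1312 and 370 of the 16702 lower. With the 3 oil arrays high in skeletal muscle transcripts left out, the counts were 1, 8 and 2. The first of these rests on a single oil oviduct array, whose spread is taken from the other groups. Without the 2 oviduct arrays with conflicting records, 2 rose in the oviduct. Shares over all probe sets are not given for these 2 settings, so the shifts in the counts are not read as particular to these genes.

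**Figure D1:**
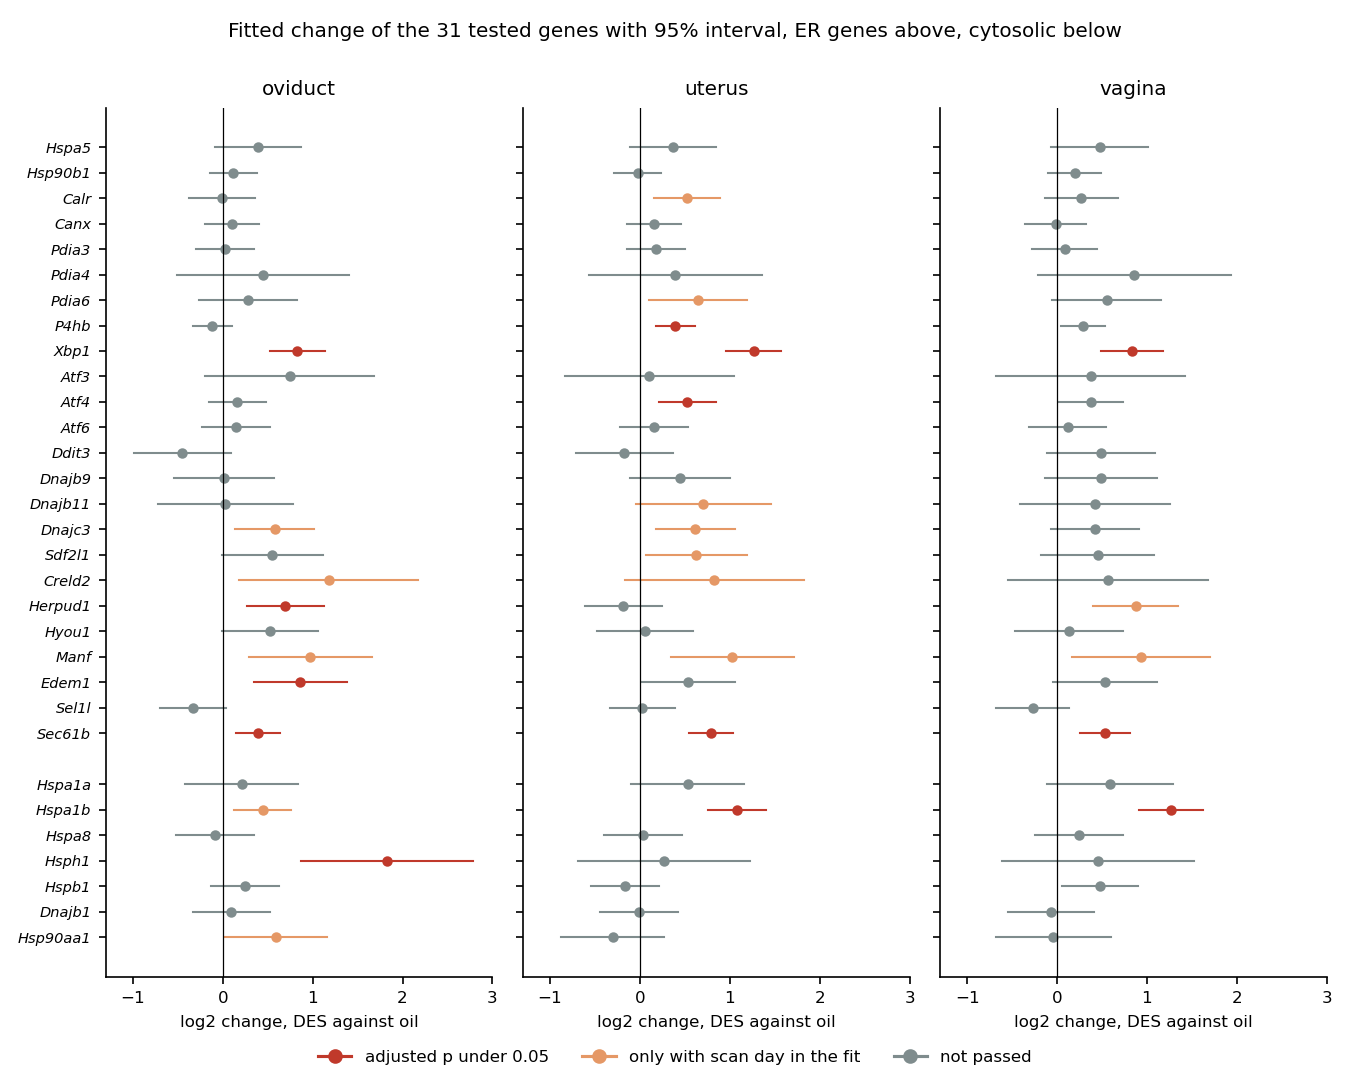
Fitted log2 change with DES against oil (x axis) of the 31 tested genes (y axis) in oviduct, uterus and vagina, with 95% intervals of the fit. Red marks an adjusted p under 0.05, orange the genes that pass only with the scan day in the fit. Xbp1 and Sec61b are red in all 3 organs, and no gene passes to the left of 0.

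Xbp1, the transcription factor spliced by IRE1, rose in all 3 organs. In the oviduct its signal was 3143, 3081 and 2784 on the oil arrays and 6424, 5045 and 4727 on the DES arrays. In the uterus it was 2527, 2701 and 2836 with oil and 7390, 7052 and 5275 with DES. In the vagina it was 3101, 3114 and 3185 with oil and 6350 and 4952 with DES. Every DES array of an organ lay above every oil array, and the oil arrays of all 3 organs lay within 2527 to 3185. The log2 change was 0.83 ± 0.15 (SE) for oviduct, 1.27 ± 0.15 for uterus and 0.83 ± 0.16 for vagina. Adjusted p from limma was 0.00125, 2.2e-05 and 0.00916. Leaving out any 1 array kept the call in the oviduct and the uterus. In the vagina it was lost without DES vagina array 2, with an adjusted p of 0.216 by limma. Without the 3 oil arrays with muscle transcripts, the oviduct change was 0.79 with an adjusted p of 0.0815. The gene has 4 probe sets. The second passed in each organ, with 0.82, 0.99 and 0.78, the third in the uterus with 1.38, and the fourth, Present on 2 arrays, in none. A 3' expression array of this kind measures the total mRNA, and spliced Xbp1 was not measured apart.

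Of the other transcription factors of the stress response, limma called 1 in 1 organ. Atf4, the factor downstream of PERK, rose in the uterus, from 2074, 1872 and 2416 with oil to 2873, 2889 and 3439 with DES. The groups did not overlap there. The log2 change was 0.53 ± 0.15 (limma adjusted p = 0.0359), and 5 of the 17 fits without 1 array lost the call. Its second probe set gave 0.25 (adjusted p = 0.891). In the oviduct Atf4 changed by 0.16 and in the vagina by 0.38, and neither passed. Ddit3, which encodes the proapoptotic factor CHOP, had 240, 314 and 248 with oil and 161, 198 and 201 with DES in the oviduct, a change of -0.45 that did not pass. In the vagina its change was 0.49, which did not pass either. Atf6 changed by 0.12 to 0.16 in the 3 organs, with intervals within -0.31 and 0.54. Atf3, an early stress factor, was Present on 7 of 16 arrays, with signals of 67.5 to 359 and no call.

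The largest part of the list, 15 ER chaperones, foldases and cochaperones, held 1 called gene. P4hb, the disulfide isomerase PDI, had 6296, 6406 and 6398 in the oil uterus and 8517, 8220 and 8395 in the DES uterus. The SD of its oil uterus arrays was 61.0, and the rise of 0.39 ± 0.10 (limma adjusted p = 0.0225) was small but clear of the oil arrays. It was lost in 5 of the 17 fits without 1 array and, with an adjusted p of 0.0841, without the oil arrays with muscle transcripts. In the vagina the change of 0.29 also had no overlap (6354, 6921 and 7106 against 8206 and 8380) and did not pass. In the oviduct the change was -0.12. The difference between uterus and oviduct was 0.51 ± 0.15, with a limma adjusted p of 0.122, or 0.0323 with the scan day in the fit.

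Several secreted or luminal folding factors were called only once the scan day was in the fit. Manf, a secreted ER-resident factor induced by ER stress, had 1482, 1179 and 2437 in the oil oviduct and 3016, 2548 and 4338 in the DES oviduct. In the uterus the signals were 1325, 1873 and 2518 with oil and 3454, 3331 and 4751 with DES. In the vagina they were 1253, 1596 and 3247 with oil and 3339 and 3875 with DES. In every group the last value, from the later scan day, was the highest, and the groups did not overlap in any organ. The log2 change was 0.97 ± 0.32, 1.03 ± 0.32 and 0.93 ± 0.36, with limma adjusted p of 0.0817, 0.0610 and 0.287. With the scan day in the fit the limma adjusted p was 0.000341, 0.000181 and 0.0115, the last for a vagina change of 0.82.

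Creld2, a disulfide isomerase-like protein of the ER, followed the same layout. Its signal was 248, 303 and 728 in the oil oviduct and 781, 732 and 1299 in the DES oviduct. In the uterus it was 283, 245 and 615 with oil and 477, 533 and 1062 with DES, and in the vagina 330, 288 and 930 with oil and 462 and 993 with DES. The DES oviduct lay above the oil oviduct, while in the uterus and vagina the later oil array lay among the DES arrays. The changes of 1.18 and 0.83 in oviduct and uterus passed with the scan day in the fit (limma adjusted p = 1.91e-05 and 0.000707), and 0.37 in the vagina did not (adjusted p = 0.244).

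In the uterus the scan-day fit also called Calr, the lectin chaperone calreticulin, with 0.52, and Pdia6, a disulfide isomerase, with 0.65. Calr had 3820, 3992 and 5610 in the oil uterus and 5843, 6187 and 7046 in the DES uterus, with no overlap. Pdia6 had 1930, 2417 and 3288 with oil and 4291, 3137 and 4449 with DES, where the later oil array exceeded 1 DES array of the earlier day. The fit called 3 further cochaperones there, Dnajb11 with 0.71, Dnajc3 with 0.62 and Sdf2l1 with 0.63. Dnajc3, known as p58IPK, an inhibitor of PERK, was also called in the oviduct with 0.58. Its 3 oil uterus arrays had 400, 336 and 524, and its 3 DES uterus arrays 675, 565 and 726. For Dnajc3 the second and the third of 5 probe sets passed in the uterus without the scan day, with 0.98 and 0.79. Likewise the third probe set of Calr passed there with 0.62 (adjusted p = 0.00697). The second probe set of Pdia6, Present on 9 of 16 arrays, gave -0.06 there (adjusted p = 0.946), 0.01 in the oviduct and -0.24 in the vagina.

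Hspa5, which encodes BiP, the main ER chaperone and the usual marker of the unfolded protein response, did not pass in either fit. Its signal was 7091, 7165 and 11083 in the oil oviduct and 10533, 9537 and 12776 in the DES oviduct. The oil uterus had 7044, 7693 and 11067 and the DES uterus 12255, 9829 and 10723. The oil vagina had 6783, 6195 and 11649 and the DES vagina 10808 and 11106. The earlier oil arrays lay below every DES array of their organ, while the later oil arrays lay among the DES arrays in oviduct and uterus and above them in the vagina. The changes were 0.39, 0.37 and 0.47, with SE of 0.23 to 0.25. Its second probe set had 0.50 for oviduct, 0.62 for uterus and 0.56 for vagina. With limma adjusted p of 0.0473 and 0.0121, the first 2 of these passed, so the result for Hspa5 depends on the probe set.

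The other luminal chaperones stayed within their spread. Hsp90b1, the ER HSP90 called GRP94, changed by 0.12, -0.02 and 0.20, and Canx, the membrane lectin calnexin, by 0.10, 0.15 and -0.02. The intervals of both lay between -0.35 and 0.49 in every organ. Pdia3, the isomerase that works with these lectins, changed by 0.02, 0.18 and 0.08. Pdia4 changed by 0.45, 0.40 and 0.86, but with SE of 0.45 to 0.51. Hyou1, an ER HSP110, changed by 0.53, 0.06 and 0.13, and Dnajb9, a cochaperone of BiP, by 0.02, 0.45 and 0.49. None of these passed in either fit.

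The 4 genes of translocation and ER-associated degradation held 3 of the 5 oviduct calls. Sec61b, a subunit of the channel through which new proteins enter the ER, rose in all 3 organs. Its oviduct signal was 3129, 2501 and 2899 with oil and 3499, 3710 and 3998 with DES. The uterus had 2573, 2591 and 2657 with oil and 4671, 4174 and 4752 with DES. The vagina had 3002, 2548 and 3046 with oil and 3941 and 4369 with DES. The groups did not overlap in any organ, and the uterus groups lay farthest apart. The log2 change was 0.39 ± 0.12, 0.79 ± 0.12 and 0.53 ± 0.13, with limma adjusted p of 0.0471, 0.000255 and 0.0401. No single array decided the uterus call. The oviduct call was lost in 13 and the vagina call in 9 of the 17 fits without 1 array.

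Herpud1, an ER membrane protein that takes part in degradation, was 402, 553 and 511 in the oil oviduct and 716, 776 and 936 in the DES oviduct. Its rise there was 0.70 ± 0.20 (limma adjusted p = 0.0432). The call was lost in 12 of the 17 fits without 1 array, and without the 2 arrays with conflicting records the change was 0.46 (adjusted p = 0.354). In the vagina it had 462, 328 and 560 with oil and 831 and 836 with DES, a change of 0.87 ± 0.23 (limma adjusted p = 0.0551), or 0.83 with the scan day in the fit, which passed (adjusted p = 0.0110). In the uterus it was 461, 637 and 744 with oil and 553, 504 and 525 with DES, a change of -0.18. The difference of vagina minus uterus was 1.06 ± 0.30, with an unadjusted p of 0.0028 and a limma adjusted p of 0.321. That of uterus minus oviduct was -0.88 ± 0.29 (adjusted p = 0.213), which passed with the scan day in the fit (adjusted p = 0.0461). Its second probe set, Present on all 16 arrays, rose in the oviduct by 0.84 (adjusted p = 0.0324), but gave 0.22 in the uterus (adjusted p = 0.683) and 0.07 in the vagina (adjusted p = 0.971). The vagina change and the differences between organs therefore rest on 1 of the 2 probe sets.

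Edem1, a lectin that hands misfolded glycoproteins to degradation, had 358, 212 and 424 in the oil oviduct and 667, 514 and 654 in the DES oviduct. Its change of 0.86 passed (limma adjusted p = 0.0395), yet the probe set was Absent on all 3 DES oviduct arrays and Present on 2 of 16 arrays in all. Its second probe set gave 0.04 (adjusted p = 0.970), so the call is not taken as a level of the gene. Sel1l, the adaptor of the degradation ligase HRD1, was not called in any organ, with changes of -0.33, 0.03 and -0.27.

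**Figure D2:**
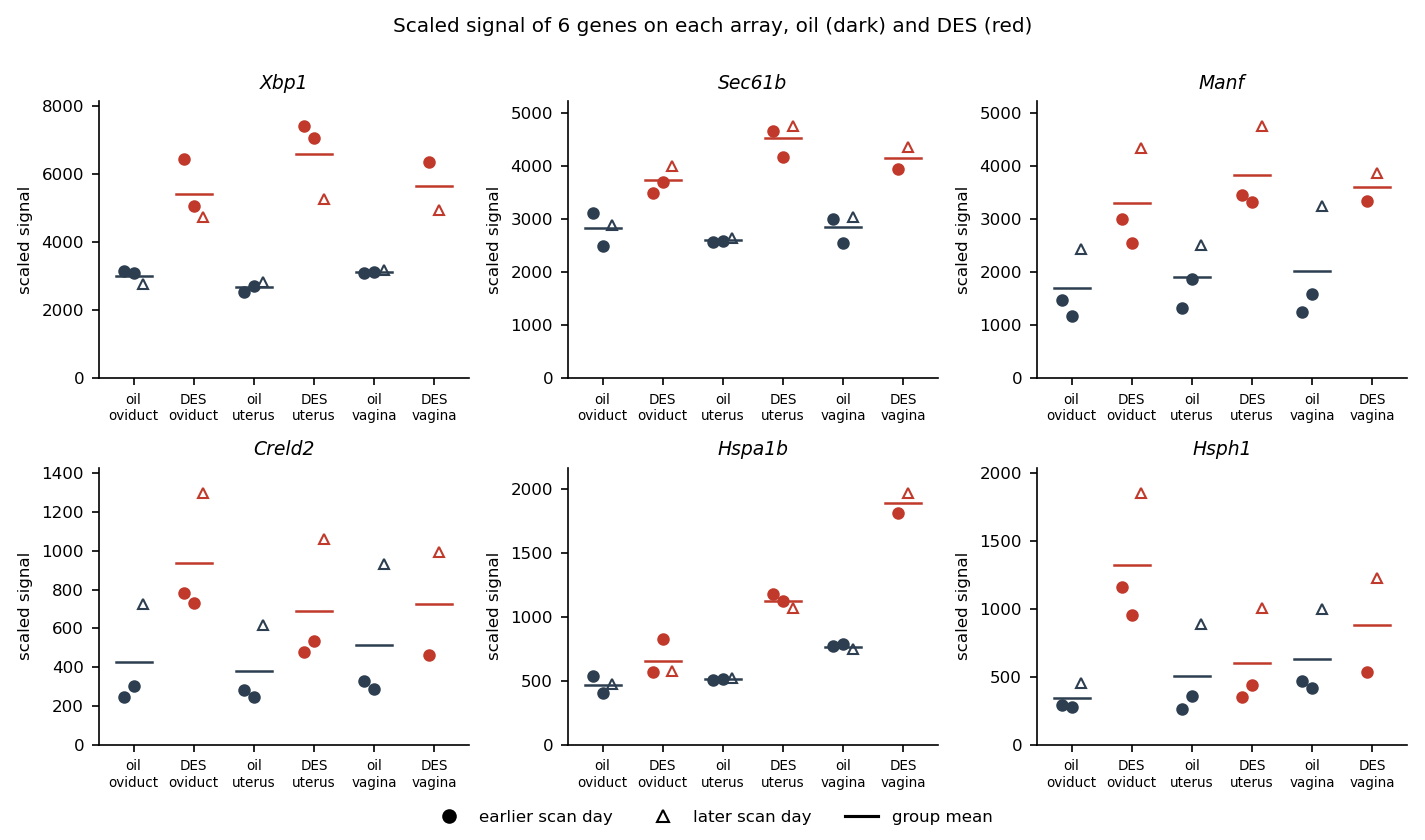
Scaled signal (y axis, linear from 0) of 6 genes on each of the 17 arrays, grouped by organ and treatment (x axis). Oil is dark and DES red, filled circles are the earlier and open triangles the later scan day, and bars are group means. Xbp1 and Sec61b separate oil from DES in each organ, while Manf, Creld2 and Hsph1 also step up on the later day.

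The 7 cytosolic chaperones and heat-shock genes held 1 call per organ, and not always the same gene. Hspa1b, an inducible HSP70, rose in the uterus and vagina. It had 507, 511 and 524 in the oil uterus and 1179, 1126 and 1068 in the DES uterus. In the vagina it had 770, 784 and 745 with oil and 1811 and 1968 with DES. The arrays of each of these groups lay close together and far from the other treatment. The rise was 1.08 ± 0.15 in the uterus (limma adjusted p = 0.000144) and 1.27 ± 0.17 in the vagina (adjusted p = 0.0003), and leaving out any 1 array kept both. In the oviduct the signals were 533, 402 and 473 with oil and 571, 822 and 575 with DES, a change of 0.45 (adjusted p = 0.0879). Of its other 2 probe sets, the third rose by 1.54 in the uterus and 1.46 in the vagina, and the second by 1.03 in the uterus, while 0.90 in the vagina did not pass. Hspa1a, a near-identical copy, was Present on 6 of 16 arrays and changed by 0.21, 0.53 and 0.59 without passing. The Hspa1b probe set is of the type that can bind both copies, so the 2 genes cannot be told apart with certainty.

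Hsph1, an HSP110 that recharges HSP70, rose in the oviduct and had the largest change of the 31 genes. Its oviduct signal was 290, 281 and 458 with oil and 1160, 956 and 1855 with DES. The uterus had 266, 359 and 889 with oil and 348, 443 and 1006 with DES, and the vagina 472, 417 and 996 with oil and 532 and 1229 with DES. In uterus and vagina the arrays parted by scan day, in the oviduct by treatment as well. The oviduct change was 1.83 ± 0.45 (limma adjusted p = 0.0175), and in uterus and vagina it was 0.27 and 0.46. The call was lost in 3 of the 17 fits without 1 array, with an adjusted p of up to 0.0782. Without the 2 arrays with conflicting records the change was 1.47 (adjusted p = 0.173), and without the oil arrays with muscle transcripts 2.06 (adjusted p = 0.0839). The second probe set also rose in the oviduct, by 1.32 (adjusted p = 0.00741). The uterus minus oviduct difference was -1.56 ± 0.64, with a limma adjusted p of 0.433, or 0.00067 with the scan day in the fit.

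Hsp90aa1, the inducible cytosolic HSP90, had 6314, 8437 and 3819 in the oil oviduct and 11022, 9413 and 6763 in the DES oviduct. The groups overlapped across scan days. The change of 0.59 passed with the scan day in the fit (limma adjusted p = 0.00867), and 1 of its other probe sets passed without it, with 0.74 (adjusted p = 0.00225). Its uterus change was -0.30 and its vagina change -0.04, and the difference of uterus minus oviduct, -0.89, passed with the scan day in the fit (adjusted p = 0.0173). The constitutive Hspa8 changed by -0.09, 0.04 and 0.24 and the small heat-shock gene Hspb1 by 0.25, -0.17 and 0.48. Dnajb1, the HSP40 partner of HSP70, changed by 0.10, -0.01 and -0.06. None of the last 3 passed in either fit.

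Over all organs, no difference of the DES change between organs passed for any of the 31 genes in the fit without the scan day. Unadjusted p was under 0.05 for 8 genes between uterus and oviduct, 2 between vagina and uterus and 3 between vagina and oviduct. Over all 16702 probe sets, unadjusted p was under 0.05 for 1451, 913 and 1408. The last 2 gene counts were near those shares. After adjustment, limma called 1.3%, 0.222% and 1.36% of all probe sets. With the scan day in the fit, 4 genes passed for uterus minus oviduct, where 3.5% of all probe sets did. These were P4hb, Herpud1, Hsph1 and Hsp90aa1, of which P4hb had the larger change in the uterus. For vagina minus oviduct 2 passed, Hspa1b with 0.83 and Hsph1 with -1.55, beside 3.34% of all probe sets. For vagina minus uterus none did, beside 0.88%.

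Between the organs of the oil groups, few of the 31 genes were called, at shares near those of all probe sets, so these counts say nothing particular to them. On the earlier day the organs were in separate hybridization runs, so organ and run cannot be told apart there. Between oviduct and uterus limma called none, where 1.47% of all probe sets passed. Unadjusted p was under 0.05 for 4 of the genes and for 1793 of all 16702 probe sets. Between uterus and vagina it called Hsp90b1, beside 3.75% of all probe sets. That gene had 3244, 3331 and 3646 in the oil uterus and 2606, 2494 and 2180 in the oil vagina, a difference of 0.49 ± 0.13 (adjusted p = 0.0380). Its second probe set differed by 0.05 there, and 8 of the 17 fits without 1 array lost the call. Between oviduct and vagina it called Hspa1b, 0.68 lower in log2 in the oviduct (limma difference -0.68 ± 0.15, adjusted p = 0.0132), beside 3.95%. With the scan day in the fit 3 genes passed in each pair, where 4.62%, 8.16% and 8.29% of all probe sets did. Dnajb9 was among them, higher in the oil oviduct (1072, 966 and 716) than in the oil uterus (497, 625 and 535) or the oil vagina (544, 631 and 466).

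The scan day itself moved many of the 31 genes. Within groups, 16 were higher and 4 lower on the later day by limma, where 17.4% of all probe sets tested were higher and 25.9% lower. Creld2 was higher by 1.13 ± 0.10 in log2, with 245 to 781 on the earlier day and 615 to 1299 on the later. Hsph1 was higher by 1.07 ± 0.11, Pdia4 by 0.96 ± 0.15, Manf by 0.69 ± 0.10 and Dnajb11 by 0.67 ± 0.14. The 4 lower genes were Canx, Dnajb9, Hspa1a and Hsp90aa1, with -0.21 to -0.56. Xbp1, with -0.17 ± 0.07, and Sec61b, with 0.10 ± 0.06, did not pass. Hspa1b, at -0.04 ± 0.09, did not pass either. These 3 were among 11 genes for which limma called no scan-day difference.

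**Figure D3:**
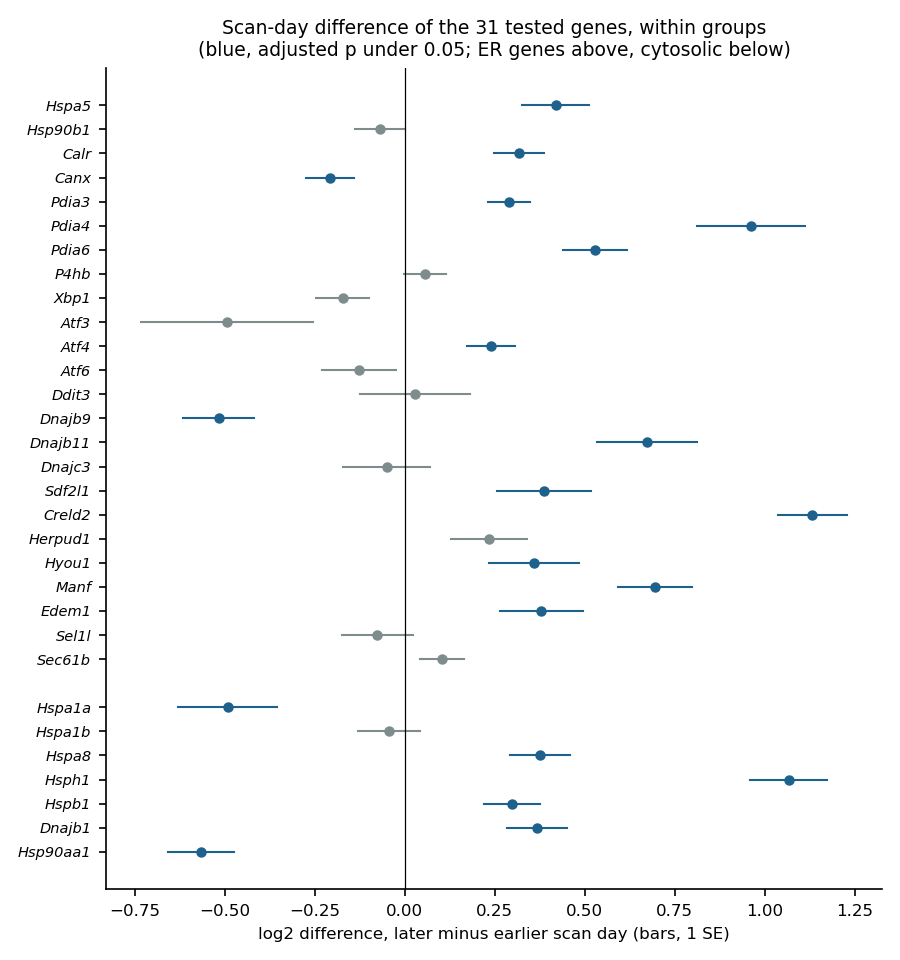
Log2 difference of the later minus the earlier scan day (x axis, with bars of 1 SE) for the 31 tested genes (y axis), from the fit with 1 mean per group and the scan day. Blue marks an adjusted p under 0.05. Creld2, Hsph1 and Pdia4 lie near 1, and Xbp1, Sec61b and Hspa1b near 0.

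To set DES against oil within a scan day, the arrays were also compared in 6 pairings of organ and day, with no test. In uterus and vagina on the later day, the oil array was from hybridization run 4 and the DES array from run 5. Treatment and run cannot be told apart there. In 12 of the 31 genes DES was higher in all 6, and in none was it lower in all 6. Over all probe sets tested, 8.56% were higher and 11.8% lower in all 6. The 12 were 10 of the 24 ER genes, namely Pdia4, Pdia6, Xbp1, Atf4, Dnajc3, Sdf2l1, Creld2, Manf, Edem1 and Sec61b, and 2 of the 7 cytosolic genes, Hspa1b and Hsph1. For Xbp1 the 6 differences ran from 0.63 to 1.46, for Sec61b from 0.36 to 0.83 and for Manf from 0.25 to 1.22. For Manf the lowest was the vagina on the later day, where a single oil array was set against a single DES array. Hspa5 was higher with DES by 0.49 to 0.73 on the earlier day, but on the later day it differed by 0.20, -0.05 and -0.07.

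**Figure D4:**
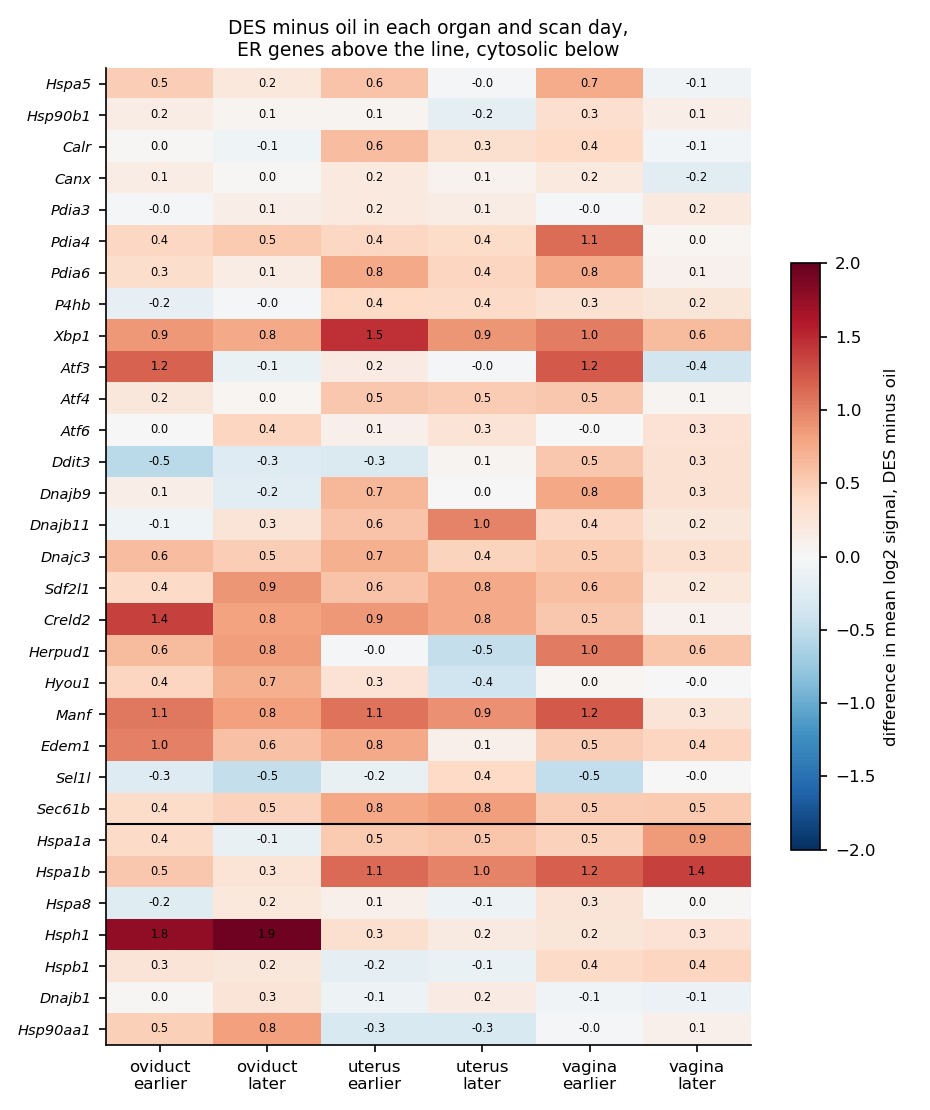
Difference of mean log2 signal, DES minus oil, in each organ and scan day (columns) for the 31 tested genes (rows). Red is higher and blue lower with DES, and each cell prints its value. The rows of Xbp1, Manf, Creld2, Sec61b, Hspa1b and Hsph1 are above 0 in all 6 columns.

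The promoters of the ER genes were read for the elements through which the unfolded protein response acts. The ER stress response element (ERSE) is CCAAT, 9 bases of any kind and CCACG, bound by ATF6 together with the CCAAT factor NF-Y. ERSE-II is ATTGG, 1 base and CCACG. Windows of 300 bases around the start of transcription came from RefSeq (GRCm38.p6), and 27 of the 32 genes had one. On either strand, ERSE stood in 39 of 32851 windows (0.119%) and ERSE-II in 12 (0.0365%). ERSE was found in 7 of the genes and ERSE-II in 2. The stretches of most of these genes follow, 5′ to 3′ on the strand of the gene, with the element in capitals. Where the capitals begin with CGTGG, the element lies on the opposite strand. They are shown because they let the ER genes that carry the same element be set beside their changes.
Creld2 (chr15:88819500-88819558, plus strand): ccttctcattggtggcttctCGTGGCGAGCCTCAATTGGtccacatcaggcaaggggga
Dnajc3 (chr14:118937807-118937865, plus strand): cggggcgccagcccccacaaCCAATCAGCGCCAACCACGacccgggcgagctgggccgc
Pdia6 (chr12:17266471-17266529, plus strand): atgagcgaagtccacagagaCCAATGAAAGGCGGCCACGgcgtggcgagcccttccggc
Calr (chr8:84847055-84847113, minus strand): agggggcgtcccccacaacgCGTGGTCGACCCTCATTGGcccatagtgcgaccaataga
Hspa5 (chr2:34772005-34772063, plus strand): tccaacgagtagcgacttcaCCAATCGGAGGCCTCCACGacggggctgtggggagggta
Canx (chr11:50325780-50325838, minus strand): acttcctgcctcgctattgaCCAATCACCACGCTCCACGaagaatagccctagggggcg
Hsp90b1 (chr10:86705513-86705676, minus strand): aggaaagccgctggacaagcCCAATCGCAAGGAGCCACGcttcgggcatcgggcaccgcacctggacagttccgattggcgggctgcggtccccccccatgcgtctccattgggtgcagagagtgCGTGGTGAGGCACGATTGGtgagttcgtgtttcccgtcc
Herpud1 (chr8:94386357-94386407, plus strand): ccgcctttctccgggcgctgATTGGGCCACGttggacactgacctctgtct

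The changes of genes with the same element were not tested against each other. In the uterus, with the scan day in the fit, Creld2, Dnajc3, Pdia6 and Calr rose, while Hspa5, Canx and Hsp90b1, the last with 2 copies, had 0.37, 0.15 and -0.02 and did not pass. The second probe set of Hspa5 did pass there. In Dnajb11 the ERSE-II began 8 bases into the transcript. The 9 ER genes with an exact element had a median change of 0.28, 0.52 and 0.42 in oviduct, uterus and vagina. The 12 with a window and no exact element had 0.28, 0.42 and 0.47, and Xbp1 and Sec61b are among these 12. Neither set was tested against the other.

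Other elements were searched in the same windows. TGACGTGG (the UPRE, bound by XBP1), TGACGTCA (the CRE) and TGATGCAAT (an amino acid response element, bound by ATF4) matched none of the 27. They stood in 0.676%, 1.79% and 0.192% of all windows. The bare CCACG, which ERSE, ERSE-II and the UPRE on its opposite strand contain, stood in 32.8% of windows and in 18 of the 27 genes. A heat shock element, 3 blocks of GAA and TTC in turn with 2 bases between them, stood in 0.603% of windows. Among these genes it stood in Hsph1 alone, just after a start site. That stretch is shown as the only such match on the list, with the element in capitals.
Hsph1 (chr5:149636287-149636308, minus strand): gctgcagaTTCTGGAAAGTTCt

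Further genes of the same pathways were read from lists made by name. Of 81 other ER genes 73 were tested. In the oviduct 6 rose and 1 fell, beside 4.39% and 3.39% of all probe sets tested. The uterus had 15 rises and the vagina 1, with no fall called. Over all probe sets 4.8% rose and 3.65% fell in the uterus, and 1.44% and 0.707% in the vagina. The vagina count was near its share. Their median change was 0.14, 0.30 and 0.26. The oviduct rises included Wfs1, the ER protein wolframin, with 1.18 ± 0.17 (limma adjusted p = 0.000234), and Ube2g2, a ubiquitin-conjugating enzyme of ER degradation, with 0.82 ± 0.20. Sec11c, a subunit of signal peptidase, rose by 0.68 ± 0.19 and Ufm1, a ubiquitin-like modifier, by 0.54 ± 0.16, while Fkbp7, a prolyl isomerase of the ER, fell by 0.76 on the log2 scale (SE 0.15). Sec11c also rose in the uterus, by 1.25 ± 0.19 (limma adjusted p = 0.000334), from 187 ± 58.2 to 477 ± 28.2 (SD, n = 3). The transcription factor gene Cebpb rose there by 1.42 ± 0.31, the prolyl isomerase Fkbp11 by 1.15 ± 0.28 and the disulfide isomerase Pdia5 by 0.89 ± 0.20. The vagina call was Asns, asparagine synthetase, a target of ATF4, with 639 ± 115 in oil (n = 3) and 1529 ± 238 with DES (n = 2), a rise of 1.22 ± 0.23 (limma adjusted p = 0.00585).

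Of 55 other cytosolic and mitochondrial chaperone genes 44 were tested. In the oviduct 4 rose and 2 fell, beside 4.39% and 3.39% of all probe sets tested. In uterus and vagina limma called none, with 9 and 4 at an unadjusted p under 0.05. Over all 16702 probe sets, 3292 and 1958 had such a p there, so these 2 counts were near the shares over all probe sets. Dnaja4, a cytosolic HSP40, was Absent on both oil oviduct arrays with calls, at a mean of 96.0, and had 479 ± 56.8 (SD, n = 3) with DES. It passed (limma adjusted p = 0.000158), and no fold is given because the oil level was not above background. Hspa4l, an HSP110 like Hsph1, rose by 1.54 ± 0.31, and was Present on 3 of 3 DES oviduct arrays and 1 of 2 oil arrays. The cochaperone Bag2 rose by 0.69 ± 0.19 and Cct7, a subunit of the chaperonin CCT, by 0.45 ± 0.12. Hmox1, heme oxygenase, fell by 1.43 on the log2 scale (SE 0.23), and Ier5 by 0.77 (SE 0.17). The median change of this list was 0.06 for oviduct, -0.08 for uterus and -0.00293 for vagina.

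**Figure D5:**
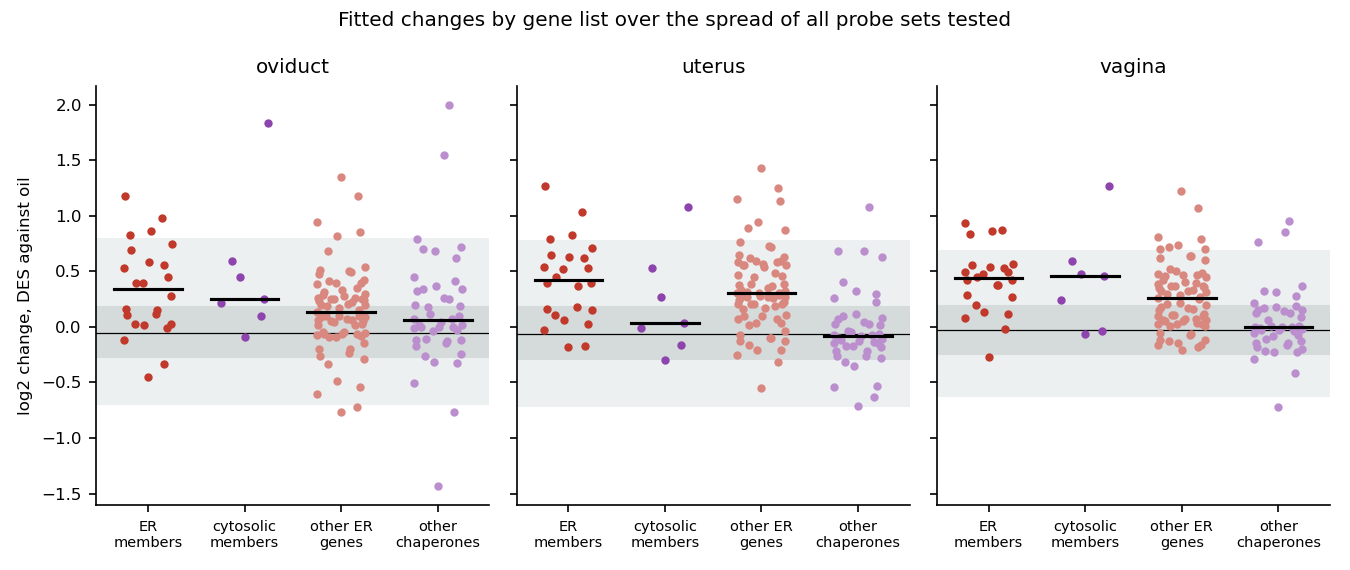
Fitted log2 change, DES against oil (y axis), of each tested gene in 4 lists (x axis) per organ, with thick bars at the list medians. Bands hold the middle 50% and 90% of all probe sets tested, and the thin line is their median. The ER members have medians of 0.34, 0.42 and 0.44, and the other cytosolic and mitochondrial chaperones have 0.06, -0.08 and -0.00293.

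Markers of secretory and other cells moved with DES as well. The summed signal of 7 simple epithelium markers was 10713 to 14704 in the oil oviduct and 21143 to 25395 in the DES oviduct, and 12483 to 14849 and 21302 to 28604 in the uterus. In the vagina it was 19282 to 26321 with oil and 26106 to 31507 with DES, which overlap. The sums of the oil vagina and the DES oviduct overlapped, and their Xbp1 signals were 3101 to 3185 and 4727 to 6424. Their stratified epithelium markers summed to 2784 to 12091 and 528 to 840. Xbp1 per epithelial cell was not tested. The sum of 7 mucous secretory markers was 636 to 2520 in the oil uterus and 22879 to 27397 in the DES uterus. For the same list the vagina had 2037 to 5152 with oil and 14559 to 16140 with DES, and the oviduct 1103 to 1902 and 3023 to 4073. Of its genes, 5 were Absent on all oil oviduct arrays with calls and 3 on all oil uterus arrays. Most of the sum in the DES uterus and DES vagina was Clca1, with means of 18716 and 10802. In the oviduct 5 of the 7 changes were positive, while Tff1 and Tff2 had -0.11 and -0.23, which did not pass. The 6 ciliated cell markers summed to 319 to 682 in the oil oviduct and 5733 to 7076 in the DES oviduct, where Hsph1, Dnaja4 and Hspa4l rose. In the DES uterus and vagina they summed to 274 to 649. Of 6 plasma and B cell markers 4 were measured, and their sum was 902 to 1214 in the oil oviduct and 1073 to 1224 in the DES oviduct. It was 1098 to 1165 and 1268 to 1621 in the uterus, and 1749 to 2168 and 2258 to 2577 in the vagina. Most of this sum was Sdc1, with means of 885 and 1178 in the uterus and 1751 and 2265 in the vagina. Jchain had group means of 35.4 to 51.5, and Cd79a was Present on no array. None of the 3 markers tested was called with DES in any organ in the fit without the scan day. With the scan day in the fit, Sdc1 was called higher in the uterus (limma adjusted p = 0.0453). Other lists moved too. Fibroblast and stroma markers summed to 53678 to 64409 in the oil uterus and 84267 to 92412 in the DES uterus, and to 61546 to 78999 and 88309 to 96928 in the vagina. The members of this list did not move together. In the uterus Col1a1 and Col1a2 rose by 1.52 and 1.14 in log2, while Pdgfra changed by -0.89 (limma adjusted p = 0.0175). Pdgfra had -0.68 in the oviduct and -0.59 in the vagina, which did not pass. In the oviduct, mesothelium markers went from 5050 to 5919 with oil to 1443 to 1990 with DES. Neural markers there had 2712 to 5302 and 541 to 647, and germ cell and ovary markers 1019 to 3199 and 225 to 384. Smooth muscle markers summed to 17978 to 18699 in the oil uterus and 29787 to 40459 in the DES uterus, and stratified epithelium markers to 2784 to 12091 and 21219 to 33462 in the vagina. The part of these cell types in the changes was not tested.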

How the data were processed

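RNA of newborn mouse oviduct, uterus and vagina was measured on 18 Affymetrix arrays, 17 of them MOE430A. Per the file headers, the scanner's probe intensities had been summarised to 1 signal per probe set, an intensity on a linear scale, and deposited with a detection p-value and a Present, Marginal or Absent call per probe set.

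Each array was scaled to a trimmed mean of 500 over probe sets other than the 64 controls, trimming 2% at each end. Oil oviduct array 1 was taken from the deposited value table, which equals the per-array signals on 16 arrays. Probe sets called Present on at least 2 of 16 arrays were kept, which left 16702 of 22626. The limma package (3.58.1, under R 4.3.3) then fitted a mean for each group to log2(signal + 32), with a variance trend, 11 residual and 5.81 prior degrees of freedom, and Benjamini-Hochberg adjustment over all of them. Folds of low signals are understated on this scale. The code was tested on simulated data.

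Gene symbols came from the platform annotation, updated through RefSeq. Of the probe sets, 20380 had 1 symbol, 691 several and 1555 none. All 32 members were described. Of the other pathway genes past the threshold with DES, at most the 4 with the largest rise and the 4 with the largest fall were named per list and organ. The members and lists were chosen with earlier results of these data known. Within groups, deviations of arrays with the same number had a median correlation of 0.284 (40 pairs), of other numbers on the same scan day 0.233 (25 pairs) and across days -0.351 (55 pairs). The numbers were not taken as pairs, and the scan day was fitted as a batch. Alternatives changed the normalization, pseudocount, filter, variance model, weights, probe set and arrays. The block of scan day was planned, while the fits on the first scan day alone, without arrays with conflicting records and without oil arrays with muscle transcripts were chosen after seeing the data. Protein sequences were not used here.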

Additional observations from a re-analysis of the deposited data

Results flagged for a closer look

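The DES vagina array of the older MG_U74Av2 type enters no comparison, and it carried a signal for these genes. On it 31 of the 32 genes have a probe set, and 25 have one called Present, beside 49.1% of all its probe sets. It has no oil array of its own type, so no change with DES was computed from it.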

How the results depend on the processing

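The genes called with DES numbered 5 in oviduct, 5 in uterus and 3 in vagina, and the other pathway genes 13, 15 and 1. Between oil organs 0 were called for oviduct and uterus, 1 for uterus and vagina and 1 for oviduct and vagina, and no difference between organs in the DES change was called. None of the 15 changes called in this main fit reversed its direction under any alternative run. Changes that were not called could reverse, as those of Pdia6 and Herpud1 in the uterus did with the second probe set. Quantile normalization gave 0 for oil uterus and vagina and 2 other pathway genes in the vagina, and no filter on calls gave 2 members in the oviduct. Requiring Present on at least 8 arrays gave 2 for oil uterus and vagina. Fitting only the groups compared gave 2 members in the oviduct, 1 in the vagina, 0 for oil oviduct and vagina and for oil uterus and vagina, and 6 other oviduct genes. With no variance trend there were 2 in the oviduct, 3 in the uterus and 0 for oil uterus and vagina. Array weights gave 8 and 10 members in oviduct and uterus, 1 for uterus minus oviduct, 1 and 2 for oil uterus against oviduct and vagina, and 22, 29 and 2 other genes. The replicate block gave 10, 12 and 5 members, 3 for uterus minus oviduct, 2 for vagina minus oviduct, 3 in each oil pair and 25, 32 and 9 other genes. As the labels do not say that arrays with the same number belong together, this was not read as a paired test. The block of scan day gave 10, 12 and 5 members, 4 and 2 for the same organ differences, 3 in each oil pair and 27, 37 and 12 other genes. The second probe set gave 0 for oil oviduct and vagina and for oil uterus and vagina.

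The first scan day alone gave 13 members in uterus and 8 in vagina, 1 for uterus minus oviduct, 1 for vagina minus oviduct, 2 for oil oviduct and uterus, 2 for oil oviduct and vagina, 0 for oil uterus and vagina, and 23, 24 and 6 other genes. Without the 2 oviduct arrays with conflicting records there were 2 members and 5 other genes in the oviduct and 0 for oil uterus and vagina. Without the 3 oil arrays with muscle transcripts there were 1 and 8 members in oviduct and uterus, 3 other oviduct genes, and 0 for oil oviduct and vagina and for oil uterus and vagina. The last 3 settings, first scan day included, were chosen after seeing the data. Causes of these shifts were not tested, other than the fewer arrays that some settings hold.

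Leaving out 1 array at a time gave 1 to 6 members in the oviduct, 3 to 7 in the uterus and 1 to 5 in the vagina. The oviduct count was 1 without oil oviduct array 2 or DES oviduct array 3, and 2 without DES oviduct array 1 or 2 or DES uterus array 1 or 2. It was 3 without oil oviduct array 1, oil uterus array 1 or 2, oil vagina array 1 or DES vagina array 2 or 3. The uterus count was 3 without oil uterus array 1 or 2 or DES uterus array 1 or 2. The vagina count was 1 without DES vagina array 2 and 5 without oil vagina array 3. The other pathway genes numbered 6 to 16, 10 to 16 and 0 to 3. For oil organs the counts were 0 to 0 between oviduct and uterus, 0 to 2 between uterus and vagina and 0 to 1 between oviduct and vagina. The last was 0 without oil oviduct array 2 or oil vagina array 2. Differences between organs numbered 0 to 0 for uterus minus oviduct and for vagina minus uterus, and 0 to 1 for vagina minus oviduct, the 1 without DES oviduct array 2. Of the refits of the 15 changes called in the main fit, 189 stayed past the threshold and 66 did not. With 2 or 3 arrays per group, their number limits the precision, and signals near background, as of Trib3, Edem1, Atf3 and Hspa1a, carry little information.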
